A study of Mus musculus with 6 samples.

Results

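Long RNA hosts of small nucleolar RNAs are transcripts whose introns hold small nucleolar RNAs. The 10 genes Snhg1, Zfas1, Snhg5, Snhg6, Snhg12, Snhg3, Snhg4, Snhg15, Snhg17 and Gas5 were listed by name, and each probe set that the platform annotation pairs with 1 of these symbols alone was taken. This gave 12 probe sets for 9 of the 10 genes, among 22180 genes and 41345 probe sets in all. Where a gene had more than 1 probe set, the one with the highest mean over the 6 arrays stood for it. That choice used the level over all arrays and not the difference between the groups. The hosts were chosen by their log2 intensities in DHA and DMSO cells, since earlier results of the same arrays were known when they were listed, so their differences are given as a description. Gas5 had no probe set of its own: probe set 17218653 is annotated with both Gas5 and Mir5117, a name that RefSeq lists as a synonym of Gas5.

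The cells were murine leukaemic B-cell precursors (B-ALL) driven by BCR-ABL, and the study asked how DHA bears on MCL-1, a survival protein, and on the response to the drug navitoclax. DHA cells received 312 nM dihydroartemisinin, the active form of the artemisinin antimalarials, for 4 h by the treatment protocol and gave 3 Affymetrix arrays. The extraction protocol names treatments of 2 h and 4 h, and the arrays are taken here as 4 h. DMSO cells received the vehicle dimethyl sulphoxide and gave the other 3 arrays, all named below by group and replicate. The growth protocol names p185 lines with or without the T315I mutation that lack Arf or p53, and the labels leave out which of them was put on the arrays. Separate cultures for the replicates are not stated either, so p-values measure the spread between these arrays, which may be technical.

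The host genes make little or no protein. Their exons are spliced together and exported, while each small nucleolar RNA is cut from an intron and stays in the nucleolus, where box C/D members guide ribose methylation and box H/ACA members guide pseudouridylation of ribosomal RNA. The spliced host RNAs carry short reading frames, and several, Snhg1 and Gas5 among them, are known to be removed by nonsense-mediated decay, a process that needs translation, so that they accumulate in cells whose translation is blocked. Several also start with a terminal oligopyrimidine tract, as ribosomal protein mRNAs do. As bulk RNA was measured, fewer cells with a transcript and less of it per cell cannot be told apart.

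The cells carried markers of their labelled lineage. All 14 B-cell precursor markers with a probe set lay above the limit for testing (4.52 on the log2 scale), with Cd79a, a signalling chain of the B-cell receptor, at 12.72 ± 0.030 in DHA cells and 12.70 ± 0.058 in DMSO cells (SD, n = 3 each). Their group means ran from 4.79 to 12.92 in DHA cells and from 4.78 to 13.04 in DMSO cells. Vpreb1 was the lowest in both groups and lay close to the limit. The 18 markers of T and NK, myeloid, erythroid and megakaryocyte cells had group means of at most 5.45 in DHA cells and 5.41 in DMSO cells, and 10 of them lay above the limit. None of these markers passed the test with limma. The 14 B-cell precursor markers summed to between 143.4 and 143.9 log2 units on the DHA arrays and between 144.0 and 144.9 on the DMSO arrays. The summed groups thus did not overlap, though 7 of the 14 markers were higher and 7 lower in DHA cells. Their median log2 fold change was 0.0048, with a range from -0.53 (Rag2) to 0.13 (Ebf1). The 4 erythroid and megakaryocyte markers, 3 of them above the limit, summed to between 19.85 and 20.04 log2 units on the DHA arrays. On the DMSO arrays they summed to between 19.56 and 19.74, also without overlap. Each of the 3 above the limit overlapped between the groups on its own, with log2 fold changes of 0.040 to 0.086. The part of either list in the results was not tested.

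Snhg1 rose after DHA, and Snhg5 and the brighter probe set of Zfas1 lay higher by a larger amount with a wider spread. The dimmer Zfas1 probe set did not, with a log2 fold change of -0.15 and overlapping groups. Of the 9 hosts, 6 were higher and 3 lower in DHA cells. The median log2 fold change was 0.22, against 0.0027 over all 15526 tested genes, and all 9 lay above the limit for testing. One host was called changed at a limma adjusted p at or under 0.05 (Benjamini-Hochberg over all tested genes), where 0.0902% of all tested genes were called, and 0.0837% as higher. In 5 of the 9 each DHA array lay above each DMSO array, as in 7.64% of tested genes, and in none did each lie below, as in 8.19%. Since the hosts were listed with results of this comparison known, nothing is read from these shares.

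Snhg1, the host of Snord22 and a run of box C/D RNAs, measured 9.89, 9.87 and 9.87 on the DHA arrays, against 9.34, 9.32 and 9.31 on the DMSO arrays (probe set 17357126, log2 intensity). The groups were separate by many times the spread within either, which was 0.013 in DHA cells and 0.017 in DMSO cells (SD, n = 3 each). The difference was a 1.46-fold rise (log2 fold change 0.55, SE 0.042, 95% interval 0.45 to 0.65; limma adjusted p = 0.0225). Its rank by p among the tested genes was 3, and 60 genes had a larger log2 fold change. On leaving out 1 array at a time the log2 fold change stayed between 0.54 and 0.56, whereas the adjusted p lay between 0.0385 and 0.280 and passed only without DHA replicate 2.

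Zfas1 hosts Snord12 and lies head to head with Znfx1. Its brighter probe set (17379864) measured 11.73, 11.42 and 11.38 on the DHA arrays, against 10.85, 10.72 and 10.66 on the DMSO arrays. The lowest DHA array was still above the highest DMSO array, and DHA replicate 1 stood highest. The means were 11.51 ± 0.19 in DHA cells and 10.74 ± 0.098 in DMSO cells (SD, n = 3 each), a log2 fold change of 0.77 (1.70-fold, SE 0.10, 95% interval 0.52 to 1.01), with a limma adjusted p = 0.0660. Without DHA replicate 1 it was 0.66, and the range on leaving out 1 array was 0.66 to 0.83.

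Snhg5 hosts copies of the box C/D RNA U50. It measured 9.96, 9.71 and 10.06 on the DHA arrays, against 9.19, 9.31 and 9.32 on the DMSO arrays (17529549). The groups were separate, and DHA replicate 2 was the lowest DHA array. Snhg5 was 1.56-fold higher (log2 0.64, SE 0.095, 95% interval 0.41 to 0.87; limma adjusted p = 0.0800), with means of 9.91 ± 0.18 in DHA cells and 9.27 ± 0.075 in DMSO cells (SD, n = 3 each). Without DHA replicate 2 it was 0.74 and passed the test (limma adjusted p = 0.0495). At a looser limit of 0.1 for the limma adjusted p, Snhg1, Zfas1 and Snhg5 were called as higher, along with 0.386% of all tested genes (0.515% in either direction).

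The starts of these hosts are printed because a pyrimidine tract at the start is the sequence feature that several of them are known to share. Each line gives 100 bases from RefSeq (assembly GRCm38.p6), read along the gene, with the annotated start at base 51. Capitals mark a C followed by at least 4 further pyrimidines (C or T) that begins between 10 bases before and 25 bases after the annotated start. Zfas1, Snhg1 and Snhg5 come first. Snhg12, Snhg17, Snhg3 and Gas5 follow, with Snhg17 and Gas5 printed from the more downstream of their starts. Snhg3, and Snhg17 by its brightest probe set, lay lower in DHA cells with overlapping groups.
Zfas1 (chr2:167062884-167062983, plus strand): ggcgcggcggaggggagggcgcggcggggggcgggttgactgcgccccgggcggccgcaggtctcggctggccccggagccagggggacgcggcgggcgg
Snhg1 (chr19:8723437-8723536, plus strand): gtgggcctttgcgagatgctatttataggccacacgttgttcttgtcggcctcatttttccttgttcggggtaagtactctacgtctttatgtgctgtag
Snhg5 (chr9:88522848-88522947, minus strand): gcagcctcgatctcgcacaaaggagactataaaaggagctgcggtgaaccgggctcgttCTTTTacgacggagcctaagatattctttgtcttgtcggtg
Snhg12 (chr4:132308628-132308727, plus strand): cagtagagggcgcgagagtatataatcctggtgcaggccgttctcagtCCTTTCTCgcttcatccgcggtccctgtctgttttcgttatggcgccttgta
Snhg17 (chr2:158361460-158361559, minus strand): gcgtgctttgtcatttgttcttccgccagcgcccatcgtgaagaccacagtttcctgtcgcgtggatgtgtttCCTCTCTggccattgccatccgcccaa
Snhg3 (chr4:132353637-132353736, minus strand): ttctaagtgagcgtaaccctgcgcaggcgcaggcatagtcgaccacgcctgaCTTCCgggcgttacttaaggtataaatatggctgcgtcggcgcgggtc
Gas5 (chr1:161035116-161035215, plus strand): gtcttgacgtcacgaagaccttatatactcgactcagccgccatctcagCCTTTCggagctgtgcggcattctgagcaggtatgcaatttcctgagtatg

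Snhg6, which lay higher in DHA cells, and Snhg4, which lay lower, have no promoter entry and were not searched. The 8 hosts with a promoter in the table have 10 windows, of which 5 hold a tract in this stretch. Of all 32851 promoter windows 42.2% do, so the feature is common. These 5 windows belong to Snhg5, Snhg12, Snhg17, Snhg3 and Gas5. The other annotated starts of Snhg17 and Gas5, not printed, hold none, nor does Snhg15. Zfas1 and Snhg1 hold none by this definition. Snhg1 starts with C and has a run of T a few bases on, but an A comes between. Only the Gas5 start has C as its annotated first base with at least 4 pyrimidines after it, as 2.51% of windows have. The printed tracts are thus found in Snhg5 and Snhg12, which lay higher in DHA cells. They are also found in Snhg3 and in Snhg17, which by its brightest probe set lay lower, as Snhg3 did. Gas5, which holds one too, had no probe set of its own and entered no test by gene. In the full windows of 300 bases, the C/EBP-ATF response element, searched as TGATGNAA on both strands, occurs in 0 of the 8 hosts and in 3.97% of windows. The E-box CACGTG, a palindrome, occurs in Snhg15 alone and in 7.15% of windows. A match is a description only, and a missing match says that these letters are not in this window.

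**Figure D1:**
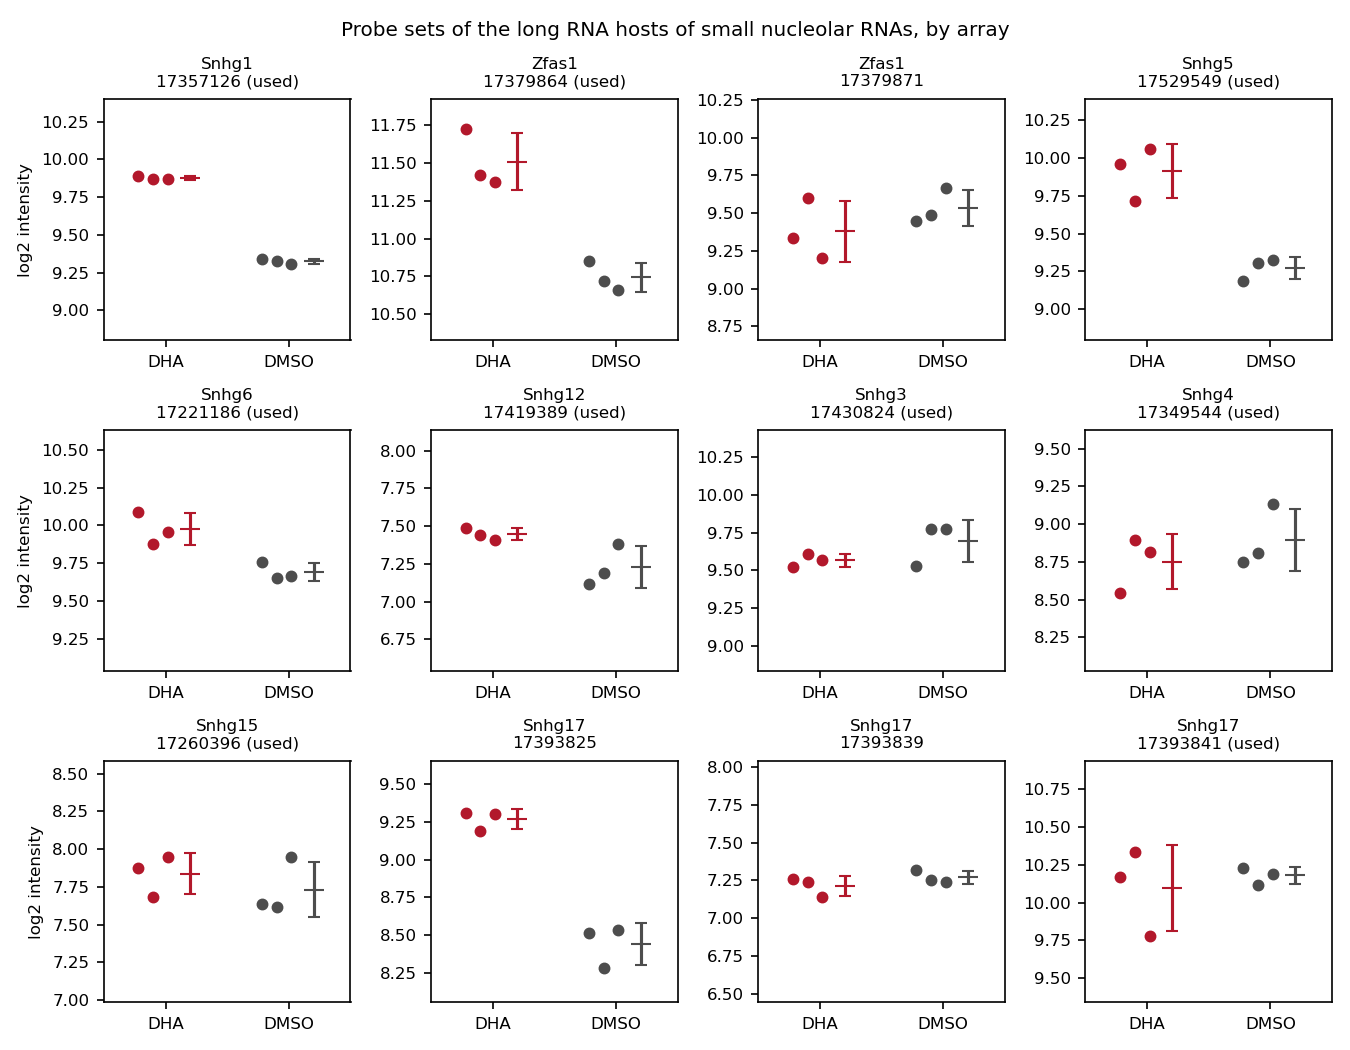
Log2 intensity of the 12 single-gene probe sets of 9 hosts on each of the 3 DHA and 3 DMSO arrays (points), with the mean and SD of each group beside them. Each panel spans 1.6 log2 units around its own mean, levels are not comparable between panels, and "used" marks the brightest probe set of a gene. Snhg1, Zfas1 17379864, Snhg5 and Snhg17 17393825 have each DHA point well above each DMSO point.

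Smaller differences were seen in Snhg6 and Snhg12. Snhg6, the host of Snord87, measured 10.09, 9.88 and 9.96 on the DHA arrays, against 9.76, 9.65 and 9.66 on the DMSO arrays. The groups were separate, and Snhg6 was 1.22-fold higher (log2 0.28, SE 0.067, 95% interval 0.12 to 0.44; limma adjusted p = 0.193). Snhg12, whose introns hold 3 box H/ACA RNAs and the box C/D RNA Snord99, measured 7.49, 7.44 and 7.41 on the DHA arrays, against 7.12, 7.19 and 7.38 on the DMSO arrays. The gap between the groups was narrow, since DMSO replicate 3 came close to the lowest DHA array. The 95% interval of its log2 fold change, 0.22, ran from 0.037 to 0.40 (limma adjusted p = 0.336). Neither passed the test.

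In the other hosts the groups overlapped. Snhg3, the host of the abundant H/ACA RNAs Snora73a and Snora73b that act in processing of ribosomal RNA, measured 9.52, 9.61 and 9.57 on the DHA arrays, against 9.53, 9.78 and 9.78 on the DMSO arrays. The 95% interval of its log2 fold change, -0.13, ran from -0.31 to 0.057 (limma adjusted p = 0.558). Snhg4, the host of Snora74a, measured 8.55, 8.90 and 8.82 on the DHA arrays, against 8.75, 8.81 and 9.13 on the DMSO arrays, a log2 fold change of -0.14 (95% interval -0.45 to 0.16; limma adjusted p = 0.696). Both intervals exclude a rise of the size seen in Snhg1. Snhg15 measured 7.88, 7.68 and 7.95 on the DHA arrays, against 7.63, 7.62 and 7.95 on the DMSO arrays, a log2 fold change of 0.10 (95% interval -0.16 to 0.37; limma adjusted p = 0.745). DMSO replicate 3 was as high as the highest DHA array there. On leaving out 1 array the log2 fold change ranged from -0.21 to -0.087 for Snhg3, from -0.22 to -0.027 for Snhg4 (-0.027 without DMSO replicate 3 and -0.041 without DHA replicate 1) and from 0.046 to 0.21 for Snhg15 (0.046 without DMSO replicate 2 and 0.21 without DMSO replicate 3). None of these passed the test.

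Probe sets of the same host did not move together in Snhg17 and Zfas1. The brightest Snhg17 probe set (17393841) measured 10.17, 10.34 and 9.78 on the DHA arrays, against 10.23, 10.12 and 10.19 on the DMSO arrays, and its groups overlapped (log2 fold change -0.084, 95% interval -0.41 to 0.24; limma adjusted p = 0.842). Its sign turned without DHA replicate 3 (0.074). Another Snhg17 probe set (17393825) measured 9.31, 9.19 and 9.30 on the DHA arrays, against 8.51, 8.28 and 8.53 on the DMSO arrays. Here the groups were far apart, with a log2 fold change of 0.83 (1.77-fold), larger than that of any host by the brightest probe set. Put in place of the brightest one in the test over all genes, a choice made after its values were seen, it had SE 0.080, a 95% interval of 0.64 to 1.01 and a limma adjusted p = 0.0323. With each of 28941 probe sets tested on its own, the adjusted p was 0.0854 (limma), and 0.00691% of probe sets were called. The remaining Snhg17 probe set (17393839) measured 7.26, 7.24 and 7.14 on the DHA arrays, against 7.32, 7.25 and 7.24 on the DMSO arrays (log2 fold change -0.059).

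The dimmer Zfas1 probe set (17379871) measured 9.34, 9.60 and 9.20 on the DHA arrays, against 9.45, 9.49 and 9.67 on the DMSO arrays. Its groups overlapped, and its log2 fold change was -0.15 (limma adjusted p = 0.756 among all probe sets). Compared within each array, the log2 fold change of 17379864 exceeded that of 17379871 by 0.92, and that of the Snhg17 probe set 17393825 exceeded those of 17393841 and 17393839 by 0.91 and 0.88. In these 3 comparisons the groups did not overlap (exact two-sided permutation p = 0.1 for each, unadjusted, the smallest that 3 against 3 arrays allow). Each was chosen after the values were seen and sets a probe set that stood out against a flatter one, so the separation is a description. The Snhg17 probe sets 17393841 and 17393839, with log2 fold changes of -0.084 and -0.059, were not compared in this way. Within-array differences had an SD of 0.29 in DHA cells and 0.21 in DMSO cells for Zfas1, and of 0.34 in DHA cells and 0.092 in DMSO cells for 17393825 against 17393841 (n = 3 each). Which part of a transcript each probe set covers was not analysed here.

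**Figure D2:**
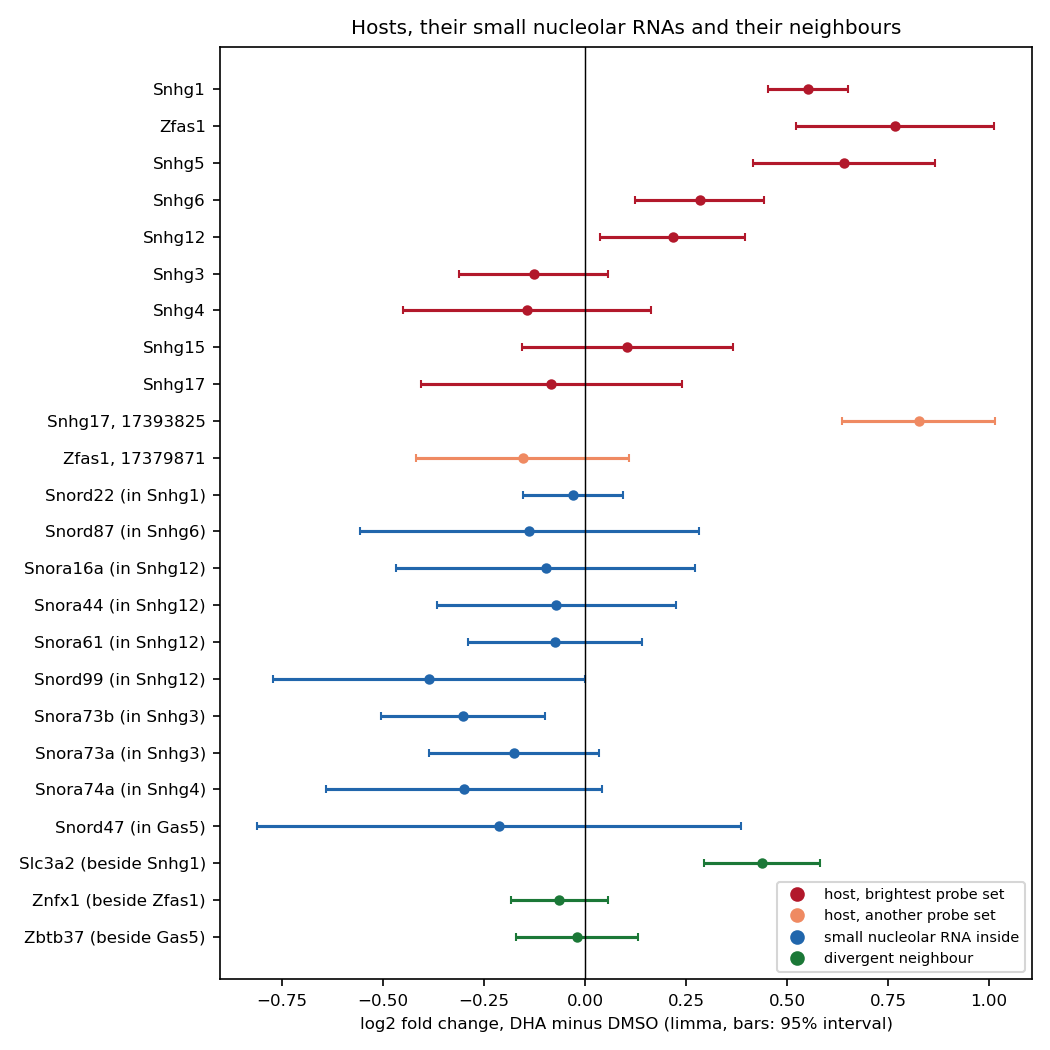
Log2 fold change, DHA minus DMSO, with the 95% interval from limma, of the 9 hosts and another probe set of Snhg17 and of Zfas1. Below them are 10 small nucleolar RNAs inside the hosts and 3 neighbours on the other strand. The legend calls these neighbours divergent, though the spans of Znfx1 and Zbtb37 overlap those of their hosts. Hosts at the top reach 0.77, the 10 small nucleolar RNAs lie between -0.39 and -0.030, and of the neighbours only Slc3a2 lies away from 0.

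None of the small nucleolar RNAs inside the hosts was called, and all that were measured lay slightly lower in DHA cells. RefSeq places 32 small nucleolar RNA genes inside the spans of the 10 hosts, and 10 of these had a probe set of their own. Coverage was uneven, with 1 of 8 in Snhg1, 0 of 3 in Zfas1 and 0 of 2 in Snhg5, against 4 of 4 in Snhg12. Snord22 was thus the only one with its own probe set inside Snhg1, Zfas1 or Snhg5. All 10 were tested, 10 were lower and 0 higher in DHA cells, and the median log2 fold change was -0.16. Limma called 0, and 2 had an unadjusted p at or under 0.05, as did 12% of all tested genes (6.08% lower). In 3 each DHA array lay below each DMSO array, as in 8.19% of tested genes. DHA replicate 3 was the lowest of the 6 arrays for 7 of the 10. Without it 7 of 10 were lower, with a median of -0.11, and without DMSO replicate 2 the median was -0.086 with 9 of 10 lower. Without both arrays that share a title code (DHA replicate 2 and DMSO replicate 3) it was -0.26.

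Snord22, which acts in the processing of the small-subunit ribosomal RNA and lies within Snhg1, measured 6.92, 6.95 and 6.86 on the DHA arrays, against 6.95, 6.99 and 6.88 on the DMSO arrays. The groups overlapped (log2 fold change -0.030, 95% interval -0.15 to 0.093; limma adjusted p = 0.853), and the interval excludes the rise of its host. Snord87 of Snhg6 measured 9.02, 8.85 and 8.32 on the DHA arrays, against 9.002, 8.85 and 8.75 on the DMSO arrays (log2 fold change -0.14). In Snhg12, Snora16a, Snora44 and Snora61 had log2 fold changes of -0.098, -0.072 and -0.074, and Snord99 had -0.39 (SE 0.16; limma adjusted p = 0.414).

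Snora73b of Snhg3 measured 9.57, 9.49 and 9.31 on the DHA arrays, against 9.74, 9.87 and 9.67 on the DMSO arrays. Each DHA array lay below each DMSO array, and the difference was -0.30 log2 units (SE 0.085; limma adjusted p = 0.250). Snora73a, a close relative that may share probes with it, had -0.18, Snora74a of Snhg4 had -0.30 and Snord47 of Gas5 had -0.21 (limma adjusted p = 0.493, 0.473 and 0.775). Probe set 17379875, annotated with both Snord12 and Zfas1, measured 7.72, 7.72 and 7.20 on the DHA arrays, against 7.71, 8.16 and 7.72 on the DMSO arrays, and was assigned to neither. Probe set 17218653, annotated with Gas5 and Mir5117, measured 7.64, 7.98 and 7.74 on the DHA arrays, against 7.74, 7.94 and 8.22 on the DMSO arrays. Neither of the shared probe sets was higher in DHA cells. Their log2 fold changes were -0.32 for 17379875 and -0.18 for 17218653 (limma adjusted p = 0.695 and 0.765 among all probe sets).

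The difference between a host and its small nucleolar RNA was compared within each array, a comparison chosen after the values were seen. Over 9 such pairs and 2 pairs of a host with its neighbour, the log2 fold change of Snhg1 exceeded that of Snord22 by 0.58, and that of Snhg6 exceeded that of Snord87 by 0.42 (exact two-sided permutation p = 0.1 for both, Benjamini-Hochberg adjusted p = 0.183 over 11 pairs). In Snhg12 the differences were 0.60 for Snord99, 0.31 for Snora16a, 0.29 for Snora44 and 0.29 for Snora61, with exact permutation p of 0.1, 0.3, 0.3 and 0.1. In Snhg3 and Snhg4 they were 0.17 for Snora73b, 0.048 for Snora73a and 0.16 for Snora74a, with exact permutation p of 0.2, 0.8 and 0.7. In all 9 pairs the host had the higher log2 fold change, and with 3 against 3 arrays none could pass at 0.05. The hosts were listed with their differences known, and 4 pairs share the Snhg12 values and 2 the Snhg3 values. Nothing is therefore read from this count.

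Genes that start beside a host on the other strand, within 2000 bases of its start by the outer ends of the RefSeq spans, were measured for Snhg1, Zfas1 and Gas5. Slc3a2, the heavy chain of cell-surface amino acid transporters and a known target of the stress factor ATF4, has the outer end of its RefSeq span beside the start of Snhg1. The start that the promoter table lists for it lies inside that span, more than 2000 bases from the start of Snhg1. Slc3a2 measured 12.12, 11.95 and 12.07 on the DHA arrays, against 11.62, 11.66 and 11.56 on the DMSO arrays. Its groups were separate, and it was 1.36-fold higher (log2 0.44, SE 0.060, 95% interval 0.29 to 0.58; limma adjusted p = 0.0660). It passed in 4 of 18 alternatives at 0.05, with limma adjusted p = 0.0452 with a replicate block for the shared title code, 0.0353 with the 50th percentile filter, 0.0366 with quantile normalization and 0.0351 with trend and robust moderation. The log2 fold change of Snhg1 exceeded it by 0.11 (exact two-sided permutation p = 0.1, adjusted p = 0.183 over 11 pairs).

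Znfx1, an RNA helicase that starts beside Zfas1, measured 7.31, 7.21 and 7.31 on the DHA arrays, against 7.31, 7.38 and 7.33 on the DMSO arrays. It overlapped between the groups (log2 fold change -0.064, 95% interval -0.18 to 0.056; limma adjusted p = 0.658), and the log2 fold change of Zfas1 exceeded it by 0.83 (exact two-sided permutation p = 0.1, adjusted p = 0.183 over 11 pairs). The spans of Zfas1 and Znfx1, and of Gas5 and Zbtb37, overlap on opposite strands, and the strand that each probe set reads was not analysed here. Zbtb37, a zinc finger gene beside Gas5, had a log2 fold change of -0.021 (95% interval -0.17 to 0.13; limma adjusted p = 0.923).

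**Figure D3:**
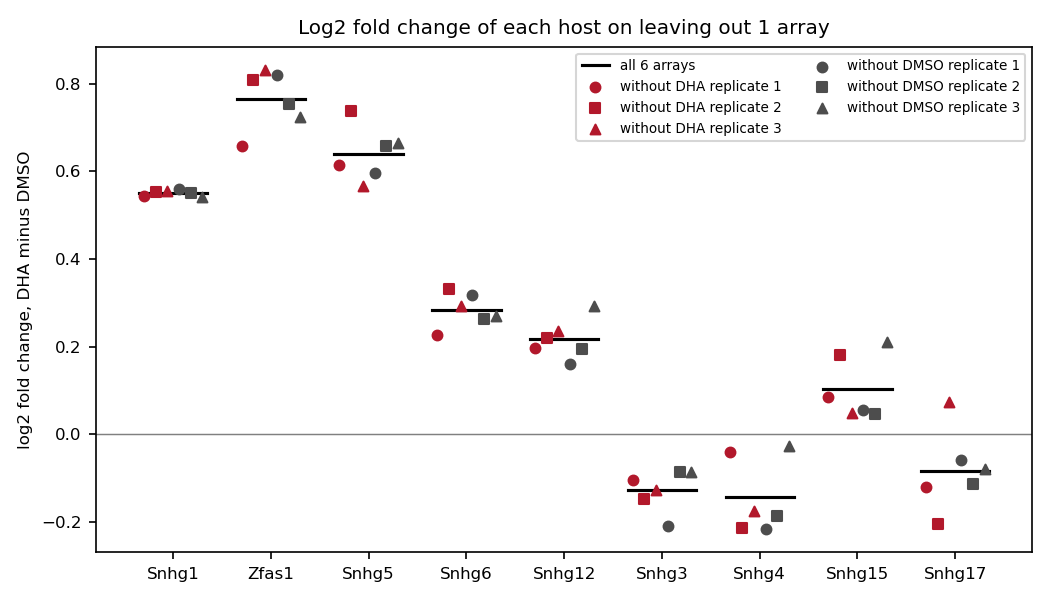
Log2 fold change, DHA minus DMSO, of each host by its brightest probe set, with all 6 arrays (bars) and with each array left out in turn (points). Snhg1 stays between 0.54 and 0.56, Zfas1 and Snhg5 stay above 0.5, and only Snhg17 changes sign, without DHA replicate 3.

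Other genes of the same pathway were followed through lists, chosen like the hosts with earlier results known. Among 9 further long RNA hosts that were tested, 3 were higher and 6 lower in DHA cells, the median log2 fold change was -0.016, and limma called 0, with 1 at an unadjusted p at or under 0.05 (12% of all tested genes). That gene was Meg3, an imprinted long RNA (log2 fold change 0.22; limma adjusted p = 0.367). Dancr had -0.19, Epb41l4aos 0.12 and Snhg10 -0.049 (limma adjusted p = 0.587, 0.605 and 0.723). Of 37 protein-coding hosts of small nucleolar RNAs, 19 were higher and 18 lower, with a median of 0.010, 0 called by limma and 0 at an unadjusted p at or under 0.05. Examples were the translation factor Eif4a2 (0.14), Tpt1 (0.28), Nop56 (0.11) and the ribosomal protein gene Rps20 (-0.20).

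Proteins of the small nucleolar ribonucleoproteins and their assembly factors had a median log2 fold change of -0.081, with 5 of 19 higher and 14 lower, against 51.4% higher of all tested genes. Limma called 0 of them, and 0 higher and 3 lower had an unadjusted p at or under 0.05, against 5.94% of all tested genes higher and 6.08% lower. Nop10, a core protein of the H/ACA particle, measured 11.17, 11.29 and 11.12 on the DHA arrays, against 11.51, 11.50 and 11.36 on the DMSO arrays, so that its groups were separate (log2 fold change -0.26, SE 0.067; limma adjusted p = 0.218). The cap-binding protein Ncbp2 had -0.21 and the H/ACA assembly factor Shq1 had -0.15, also with separate groups (limma adjusted p = 0.297 and 0.391). Nop56, a core protein of the C/D particle and itself a host, was among those higher.

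Nonsense-mediated decay factors had a median log2 fold change of -0.025, with 7 of 17 higher and 10 lower. Limma called 0, and 1 higher and 3 lower had an unadjusted p at or under 0.05, beside the same 5.94% and 6.08% of all tested genes. Smg9, a regulator of the kinase SMG1, had 0.31 (limma adjusted p = 0.175), the termination factor Gspt1 -0.24, the exon junction protein Rbm8a -0.17 and Smg8 -0.24 (limma adjusted p = 0.276, 0.314 and 0.321). The central helicase Upf1, chosen after its values were seen, measured 9.22 ± 0.022 in DHA cells and 9.23 ± 0.059 in DMSO cells (SD, n = 3 each). Of 23 tested coding genes known as substrates of this decay, 11 were higher and 12 lower, with a median of -0.0019. Limma called 2 of them, both higher, where 0.0837% of all tested genes were called as higher. These were the stress transcription factors Ddit3 (2.48) and Atf3 (1.73), both also in the stress response list. Trib3 (1.65) and Atf4 (0.50) came next by p and are in the stress response list too. At an unadjusted p at or under 0.05, 4 were higher and 2 lower, beside the same 5.94% and 6.08%. The 4 higher were Ddit3, Atf3, Trib3 and Atf4, all of them in the stress response list.

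The mTORC1 kinase controls the translation of mRNAs with a terminal oligopyrimidine tract. In its list 14 of 20 were higher, against 51.4% of all tested genes, and the median log2 fold change was 0.035. At an unadjusted p at or under 0.05, 5 were higher and 2 lower, beside 5.94% and 6.08% of all tested genes. Limma called 1, the inhibitor Sesn2 (1.86; limma adjusted p = 0.0234), where 0.0837% of all tested genes were called as higher. The translation repressor Eif4ebp1 had 0.49 (limma adjusted p = 0.0894), the inhibitor Ddit4 0.98 and Sesn1 -0.32. As the list holds parts of the kinase complex as well as its inhibitors, the count higher gives no direction for the pathway. The integrated stress response list, which holds Slc3a2 and also Sesn2 and Ddit4, had 30 of 30 higher and a median of 0.53. Limma called 7 as higher, Sesn2 among them. At an unadjusted p at or under 0.05, 27 were higher and 0 lower, beside the same shares of all tested genes. As the lists were chosen with earlier results known, these counts are a description. Among those called were Slc1a4 (1.23), Nupr1 (1.76), Mthfd2 (0.67) and Chac1 (2.21).

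**Figure D4:**
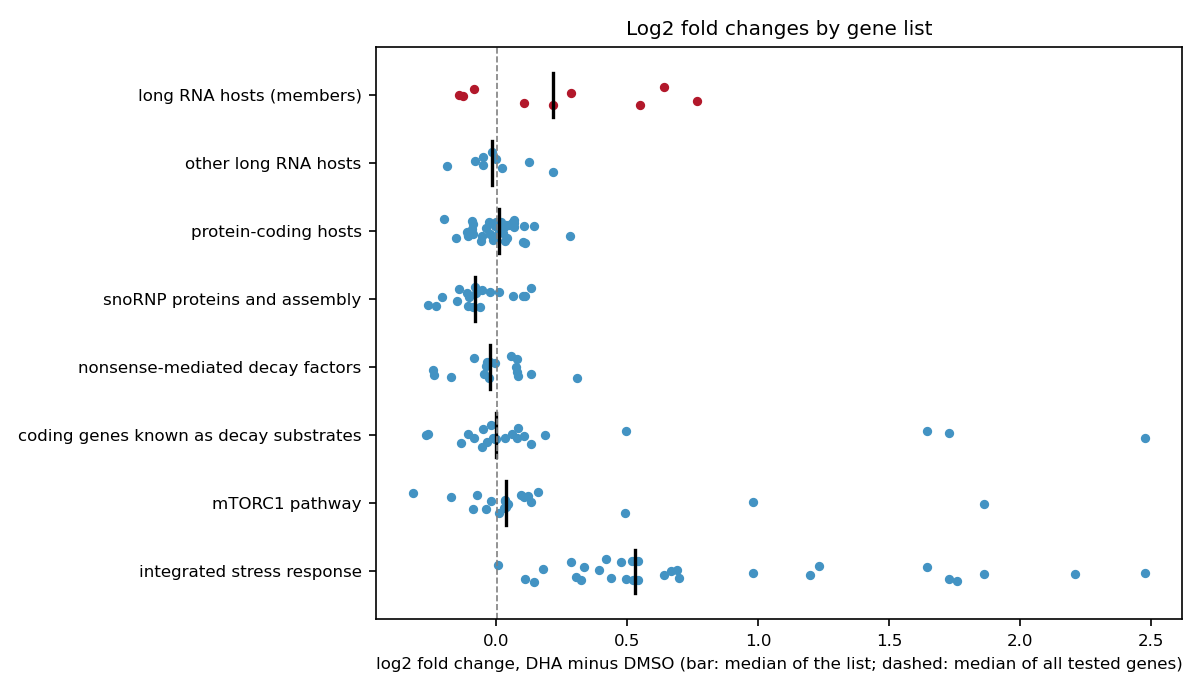
Log2 fold change, DHA minus DMSO, of each tested gene in the hosts and in 7 other lists (points), with the median of each list (bars) and of all tested genes (dashed). Hosts have a median of 0.22 and stress response genes 0.53, while the other lists have medians between -0.081 and 0.035.

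The genes whose 6 values were most like those of Snhg1 among all tested genes were Slco4a1, an organic anion transporter (Pearson r = 0.996 over 6 arrays), Gm5141 (0.991), the neutral amino acid transporter Slc1a4 (0.988), Ddit3 (0.988) and Fbxo11, a subunit of a ubiquitin ligase (0.988). These correlations rest largely on the shift between the groups and are given as a description. Of the 5, Slco4a1, Slc1a4 and Ddit3 were called as higher by limma (adjusted p = 0.0355, 0.0234 and 0.0225).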

How the data were processed

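RNA of mouse BCR-ABL B-ALL cells was measured on 3 DHA and 3 DMSO arrays. Per the submitters' processing notes, the authors used RMA, a multi-array summary, and Partek 6.6, and they deposited 1 log2 intensity for each probe set on each array. RMA as usually run evens out the arrays and can compress the differences of dim probe sets. The array medians lay between 5.25 and 5.31. Levels of different probe sets are not comparable. No scanner file was used, and precision is limited by having 3 arrays in each group.

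Probe sets with 1 annotated gene (23521, with 1814 annotated with several and 16010 unnamed here) were named through the platform annotation, and symbols were updated by Entrez identifier to RefSeq (GRCm38.p6, 23328 matched). The brightest probe set stood for each of 22180 genes, and genes under the 30th percentile of the 6-array mean (4.52) were left out, leaving 15526. These were fitted in R 4.3.3 by limma 3.58.1 (two-sided, default empirical Bayes, Benjamini-Hochberg), and changed means an adjusted p at or under 0.05. Single differences within arrays were tested by exact permutation. The procedure was tested on simulated data. Small nucleolar RNAs were placed inside hosts by RefSeq spans alone, since the table gives no strand.

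The hosts, lists and tests were chosen with earlier results of these data known. Named were each host and its probe sets, the RNAs inside, the neighbours, up to 4 members of each list by p with any called, and the 5 genes most like Snhg1. Of the marker lists, totals, extremes and the examples Cd79a and Vpreb1 are given. Replicate numbers follow accession order and pair nothing. Alternatives were leaving out arrays, other filters, normalizations, probe set rules, variance settings, array weights, thresholds, and a model term for the title code common to DHA replicate 2 and DMSO replicate 3.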

Additional observations from a re-analysis of the deposited data

How the results depend on the processing

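Other probe sets for Snhg17 and Zfas1 and all alternatives for the small nucleolar RNAs were chosen after seeing the data. The count of hosts called by limma, 1, ranged from 0 to 2 on leaving out 1 array, with 4 to 5 of 9 at an unadjusted p at or under 0.05. With all arrays 5 of 9 were, beside 12% of all tested genes, and as the hosts were listed with results known these counts support nothing. The count called was 0 with each probe set tested (5 at an unadjusted p) and without both arrays of the shared title code (6 at an unadjusted p), 2 with median centring or with probe set 17393825 for Snhg17, and 3 with the 50th percentile filter, quantile normalization, trend and robust moderation or an adjusted p at or under 0.1. With the replicate block, a term for that code, with no filter, with array weights, with the mean of probe sets or with 17379871 for Zfas1 it stayed at 1. Snhg1 was called in 11 of 18 alternatives at 0.05, Zfas1, Snhg5 and the neighbour Slc3a2 in 4 each, Snhg17 in 1, and Snhg6, Snhg12, Snhg3, Snhg4 and Snhg15 in 0. The swapped probe sets for Snhg17 and Zfas1 and the mean of probe sets leave the values of Snhg1 unchanged, so its calls there were all but fixed in advance. Some of the alternatives have fewer arrays or more tests by design, and for the others the cause was not tested.

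The median log2 fold change of the hosts, 0.22, was 0.30 without both arrays of the shared code, 0.28 with 17393825 for Snhg17 and 0.10 with 17379871 for Zfas1. Signs turned for Snhg17 (-0.084) with the mean of probe sets (0.23), with 17393825 (0.83) and on leaving out 1 array (-0.20 to 0.074), for Zfas1 with 17379871 (-0.15), and for Zbtb37 (-0.021) without both arrays of the code (0.032) and on leaving out 1 array (-0.074 to 0.026). The small nucleolar RNAs lower in DHA cells numbered 7 to 10 of 10, with medians of -0.23 to -0.086, on leaving out 1 array, and none was called in 16 alternatives by limma, with 1 to 3 at an unadjusted p at or under 0.05.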
